A study of Mus musculus with 8 samples.

Results

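Fatty acid desaturases and chain elongases are the enzymes that insert double bonds into and lengthen fatty acids. Their mRNA was measured in whole livers of mice that lacked FoxO1 in myeloid cells and of WT littermates, all on a diet that induces nonalcoholic steatohepatitis (NASH). The 10 members were chosen by name: 5 desaturase genes (Fads1, Fads2, Fads3, Fads6 and Scd2) and 5 elongase genes (Elovl1, Elovl2, Elovl3, Elovl5 and Elovl7), taken from the 46517 genes of the count table through their symbols in GENCODE M21. Scd1 and Elovl6, the desaturase and the elongase that act on saturated fatty acids made in the liver, were not members and are given only beside a related member.

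The MøFoxO1-KO group held 4 male C57BL/6 mice with loxP sites on both FoxO1 alleles and Cre recombinase driven by the lysozyme 2 (Lyz2) promoter, which is active in macrophages and other myeloid cells throughout the body. The WT group held 4 male littermates with the same floxed FoxO1 alleles and no Cre. All 8 mice started the NASH diet when 6 weeks old, received it for 25 weeks, were 31 weeks old at the end, and were fasted for 16 hours. Polyadenylated RNA from a piece of whole liver was sequenced for each mouse, and total counts per mouse ranged from 15253218 to 18025481. In such bulk RNA, fewer cells of a type and less RNA per cell cannot be told apart. Normalized counts are read counts divided by the relative library size of each mouse. Foxo1 itself had 404 ± 73.9 normalized counts in WT livers and 359 ± 73.4 in MøFoxO1-KO livers (SD, n = 4 each; log2 fold change -0.17, edgeR's quasi-likelihood test, Benjamini-Hochberg (BH) adjusted P = 0.686), and these values hold the Foxo1 mRNA of every liver cell type.

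Mammals obtain long polyunsaturated fatty acids by alternating desaturation and elongation of the dietary linoleic and α-linolenic acids. Fads2 encodes the Δ6-desaturase that starts this route, Elovl5 and Elovl2 encode elongases that follow, and Fads1 encodes the Δ5-desaturase whose products include arachidonic and eicosapentaenoic acid. Stearoyl-CoA desaturases form monounsaturated fatty acids, and Elovl1, Elovl3 and Elovl7 lengthen saturated and monounsaturated chains or, for Elovl7, polyunsaturated ones as well. Desaturases draw electrons from cytochrome b5, and each elongase catalyzes only the first step of an enzyme cycle in the endoplasmic reticulum.

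None of the 10 members differed between MøFoxO1-KO and WT livers at the threshold of the study (P below 0.05 after BH adjustment over all tested genes, with a log2 fold change beyond 1.5 in either direction), which 0.188% of the 13278 tested genes passed. The number called depended on the fit, 25 genes with edgeR and 144 with DESeq2, and the paper called more at this threshold with its own processing. None had an adjusted P under 0.05 alone, a limit that 0.294% of tested genes passed (edgeR quasi-likelihood, BH-adjusted). Before adjustment, 2 members had a P under 0.05 (edgeR) and were lower in MøFoxO1-KO livers, Fads6 and Elovl7, and 0 were higher. The WT counts of Elovl7 alone would pass the filter on low counts, and its MøFoxO1-KO counts alone would not. Its direction is therefore not independent of that filter. At an unadjusted P under 0.05, 8.06% of tested genes were lower and 8.65% higher. When 1 mouse was left out, from 1 to 3 members passed this limit: Fads6 alone without WT replicate 23, Elovl3 as well, and higher, without MøFoxO1-KO replicate 28, and Elovl1 as well, and lower, without MøFoxO1-KO replicate 29. Fads6 alone separated the groups, with every MøFoxO1-KO mouse below every WT mouse, as in 4.71% of tested genes. No member had every MøFoxO1-KO mouse above every WT mouse, a pattern seen in 5.00% of tested genes. DESeq2 on the same counts also placed 0 members under an adjusted P of 0.05.

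By their sign, 7 members had a log2 fold change below 0 and 3 above 0, where 51.7% of all tested genes lay below 0. The count below 0 was 9 without WT replicate 25, 6 without WT replicate 22 and 9 when counts were scaled to library totals. The members had a median log2 fold change of -0.24, with -0.22 for the 5 desaturases and -0.26 for the 5 elongases, beside -0.01 for all tested genes. Leaving out WT replicate 23 gave a median of -0.13, and leaving out MøFoxO1-KO replicate 27 or 28 gave -0.15. Requiring at least 10 counts in every mouse removed Elovl7, and 6 of the other 9 members then lay below 0, with a median of -0.21. Scaling to library totals moved the median over all tested genes to -0.17 and that over the members to -0.4. Log2 fold changes of the members ranged from -1.43 to 0.81, and their adjusted P values (edgeR, BH) from 0.183 to 0.963. All 10 members passed the filter on low counts, Elovl7 with MøFoxO1-KO counts that alone would not have passed.

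**Figure D1:**
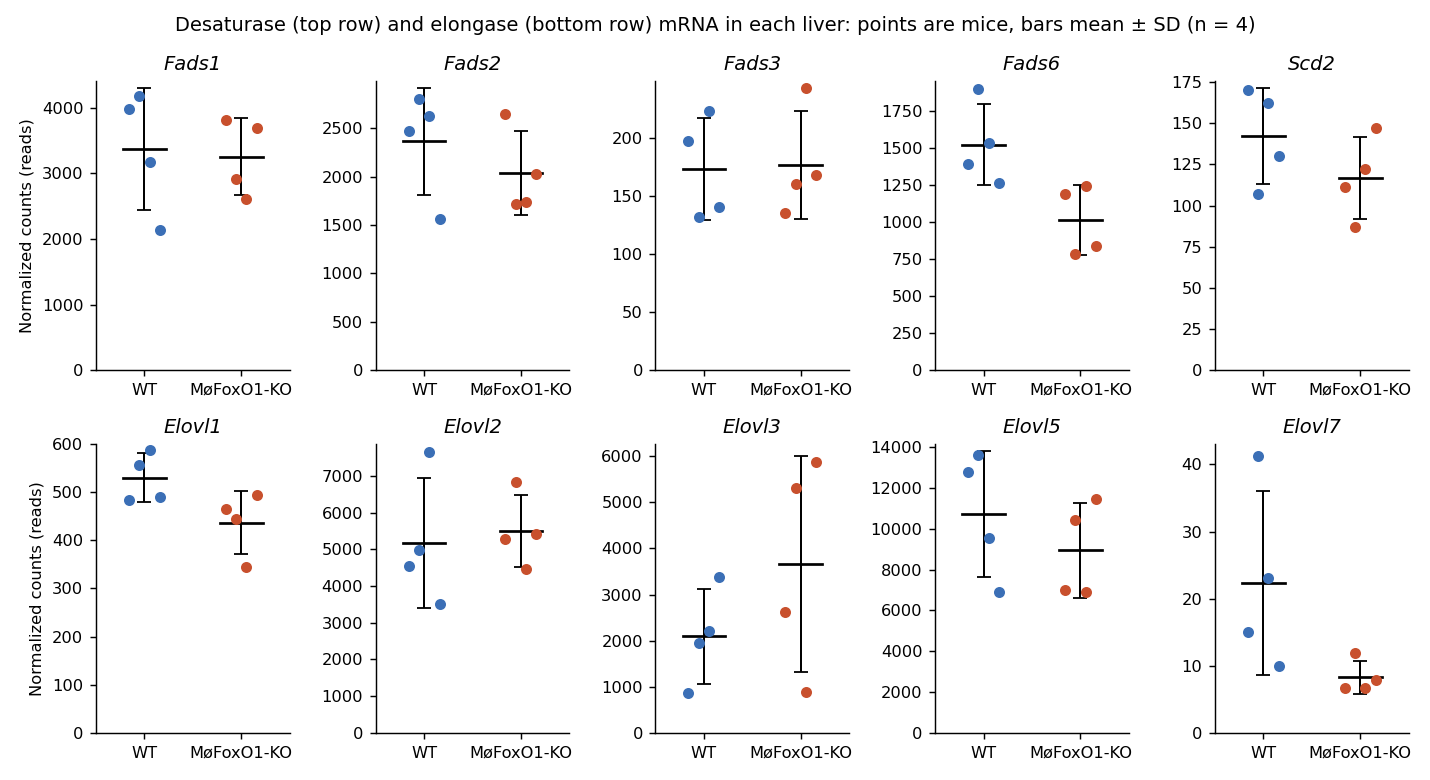
Normalized counts (reads, linear axes from 0) of the 5 desaturases in the top row and the 5 elongases in the bottom row, with 1 point per mouse and bars for the mean ± SD of 4 mice. The WT and MøFoxO1-KO points are separate only for Fads6, where the highest MøFoxO1-KO mouse had 1240 and the lowest WT mouse 1264 normalized counts.

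Fads6 encodes a protein of the fatty acid desaturase family whose substrate is not well defined. The gene (ENSMUSG00000044788) lies on the minus strand of chromosome 11 of GRCm38, between 115279622 and 115297663. Normalized Fads6 counts were 1392, 1895, 1532 and 1264 in WT replicates 22 to 25 and 1186, 783, 1240 and 838 in MøFoxO1-KO replicates 26 to 29. The groups did not overlap, although replicates 26 and 28 lay close under the lowest WT mouse. The means were 1521 ± 272 (SD, n = 4) and 1012 ± 234 (SD, n = 4), a ratio of 0.665 (exact permutation P = 0.0286, the smallest P that 4 against 4 mice allow). On the log2 scale the fold change was -0.59 ± 0.19 (SE), with a 95% confidence interval from -1.0 to -0.17 (edgeR, unadjusted P = 0.0102, BH-adjusted P = 0.183). All 15 alternative fits kept Fads6 lower, with log2 fold changes from -0.69 to -0.46, and their adjusted P ranged from 0.0731 with DESeq2 to 0.435 without MøFoxO1-KO replicate 27 (edgeR otherwise, limma-voom in 1 fit, BH).

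The promoters of Fads6 and Elovl7, the members with the smallest unadjusted P, are shown as the 250 bases before the RefSeq gene start (GRCm38.p6, gene strand, 5′ to 3′). Capitals mark AGGTCA, the hexamer bound by many nuclear receptors, or its reverse complement TGACCT.
Fads6 (chr11:115297563-115297812, minus strand): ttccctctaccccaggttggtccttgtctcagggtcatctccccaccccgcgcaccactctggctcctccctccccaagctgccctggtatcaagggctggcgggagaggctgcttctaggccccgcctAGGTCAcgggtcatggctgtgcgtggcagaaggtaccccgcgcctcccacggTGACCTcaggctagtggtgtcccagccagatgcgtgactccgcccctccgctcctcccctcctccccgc
Elovl7 (chr13:108214154-108214403, plus strand): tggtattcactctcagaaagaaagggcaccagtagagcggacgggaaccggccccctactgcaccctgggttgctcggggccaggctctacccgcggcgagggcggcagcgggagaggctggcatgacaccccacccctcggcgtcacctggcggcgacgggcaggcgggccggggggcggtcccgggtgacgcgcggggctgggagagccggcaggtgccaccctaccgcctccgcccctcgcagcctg
The Fads6 window held this hexamer at -121 on the gene strand and at -69 on the other strand, and the Elovl7 window held none of the 4 motifs searched. By the Fads6 coordinates given above, which reach 115297663, the 3′ part of its window, with the hexamer at -69, lies inside the gene. On both strands of windows from 250 bases before to 50 after the start, AGGTCA was found in 16.3% of 32851 RefSeq promoters. The other motifs were TCACNCCAC, a form of the sterol regulatory element, in 1.24%, CCAAT, the NF-Y box, in 37.4%, and TGTTTAC, a forkhead motif, in 3.65%. Of the members, 7 had an entry, with 9 windows in all. CCAAT was found in 1 window each of Elovl1, Elovl5 and Fads3, AGGTCA in 1 window each of Elovl1 and Fads6, and the sterol and forkhead motifs in 0 of the 9 windows. These matches are of letters and do not show binding.

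Fads1, Fads2 and Fads3 lie next to each other on chromosome 19 of GRCm38. Fads3 (ENSMUSG00000024664, plus strand) spans 10041548 to 10059671, Fads2 (ENSMUSG00000024665, minus strand) 10064164 to 10101503, and Fads1 (ENSMUSG00000010663, plus strand) 10182888 to 10196870. The groups overlapped for all 3 genes.

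For Fads2, the Δ6-desaturase, WT replicates 22 to 25 had 2473, 2799, 2629 and 1560 normalized counts, and MøFoxO1-KO replicates 26 to 29 had 2648, 1714, 1741 and 2030. A mouse of each genotype departed from its group: WT replicate 25 was the lowest of all 8 mice, and MøFoxO1-KO replicate 26 was as high as the other WT mice. The log2 fold change of Fads2 was -0.22 with a 95% confidence interval from -0.67 to 0.24 (edgeR, BH-adjusted P = 0.636). Fads1, the Δ5-desaturase, had 3985, 4175, 3172 and 2136 normalized counts in WT and 3807, 2912, 2606 and 3683 in MøFoxO1-KO livers. The MøFoxO1-KO mice all lay inside the WT range, and the log2 fold change was -0.05 with a 95% confidence interval from -0.53 to 0.43 (edgeR, BH-adjusted P = 0.932). Its sign turned to 0.07 without WT replicate 23.

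Fads3 encodes a desaturase that acts on sphingoid bases rather than on polyunsaturated fatty acids. Its normalized counts were 197, 132, 223 and 140 in WT and 135, 160, 243 and 168 in MøFoxO1-KO livers, where 3 of 4 MøFoxO1-KO mice lay within the WT range. The log2 fold change of Fads3 was 0.03 with a 95% confidence interval from -0.48 to 0.54 (edgeR, BH-adjusted P = 0.963), and leaving out MøFoxO1-KO replicate 28 gave -0.15. For these 3 genes the intervals exclude a change by 1.5 on the log2 scale, and they do not exclude smaller ones.

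Scd2 (ENSMUSG00000025203) encodes a stearoyl-CoA desaturase that is prominent in the brain and in the liver of young mice, while Scd1 is the main form of the adult liver. It lies on the plus strand of chromosome 19, from 44293676 to 44306864. WT livers had 170, 107, 162 and 130 normalized Scd2 counts and MøFoxO1-KO livers 111, 87.2, 122 and 147. Replicate 27 was the lowest of the 8 mice, and the other MøFoxO1-KO mice fell within the WT range. Its log2 fold change was -0.29 with a 95% confidence interval from -0.76 to 0.18 (edgeR, BH-adjusted P = 0.537). Scd1 had 59758 to 347025 normalized counts in WT and 46740 to 112769 in MøFoxO1-KO livers, with a log2 fold change of -1.0 and a standard error of 0.48 (edgeR, BH-adjusted P = 0.329). Scd1 and Scd2 are close paralogs, and how reads that match both were counted is not given in the sources used here, so the Scd2 values are uncertain.

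Among the elongases, Elovl5 (ENSMUSG00000032349, plus strand of chromosome 9, 77917364 to 77984519) lengthens the shorter polyunsaturated fatty acids. Its normalized counts were 12804, 13628, 9564 and 6928 in WT and 7013, 10437, 6923 and 11458 in MøFoxO1-KO livers. Both groups spread over much the same range, and the log2 fold change was -0.26 with a 95% confidence interval from -0.81 to 0.29 (edgeR, BH-adjusted P = 0.637). Elovl2 (ENSMUSG00000021364, minus strand of chromosome 13, 41182495 to 41220405) lengthens the longer polyunsaturated fatty acids on the way to docosahexaenoic acid. It had 4548, 4984, 7661 and 3508 normalized counts in WT and 5288, 6835, 4452 and 5426 in MøFoxO1-KO livers. WT replicates 24 and 25 were the highest and the lowest of the 8 mice, so that all MøFoxO1-KO values lay between them. The log2 fold change of Elovl2 was 0.09 with a 95% confidence interval from -0.43 to 0.6 (edgeR, BH-adjusted P = 0.883), and its sign turned to -0.06 without WT replicate 25 and to -0.1 with counts scaled to library totals.

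Elovl1 (ENSMUSG00000006390, plus strand of chromosome 4, 118428093 to 118432953) lengthens saturated and monounsaturated very-long-chain fatty acids that enter sphingolipids. WT livers had 484, 557, 588 and 490 normalized counts and MøFoxO1-KO livers 465, 443, 344 and 493. MøFoxO1-KO replicates 26, 27 and 28 lay below all 4 WT mice, and replicate 29 lay between WT replicates 25 and 23. The means were 530 ± 50.9 in WT and 436 ± 64.9 in MøFoxO1-KO livers (SD, n = 4 each; exact permutation P = 0.0857). It had a log2 fold change of -0.28 ± 0.13 (SE), with a 95% confidence interval from -0.58 to 0.02 (edgeR, BH-adjusted P = 0.331). Scaled to library totals, the difference of Elovl1 was -0.44 on the log2 scale and the exact permutation P was 0.0286, beside the shift of all tested genes given above. Elovl1 shares 53 exon bases with Cdc20 on the opposite strand, which had 150 counts in all 8 mice, and the strand setting of the counting is not given in the sources used here.

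Elovl3 (ENSMUSG00000038754, plus strand of chromosome 19, 46131897 to 46135307) lengthens saturated and monounsaturated fatty acids, and its mRNA in mouse liver is known to be higher in males and to follow a daily rhythm. WT livers had 870, 1940, 2206 and 3373 normalized counts, and MøFoxO1-KO livers 2616, 5320, 878 and 5870. MøFoxO1-KO replicates 27 and 29 lay above all WT mice, while replicate 28 was close to the lowest WT mouse. The means were 2097 ± 1028 in WT and 3671 ± 2343 in MøFoxO1-KO livers (SD, n = 4 each), a ratio of 1.75 (exact permutation P = 0.257). The log2 fold change was 0.81 ± 0.54 (SE), with a 95% confidence interval from -0.4 to 2.01 (edgeR, BH-adjusted P = 0.491), and leaving out MøFoxO1-KO replicate 28 gave 1.15, while leaving out replicate 29 gave 0.49. Other genes known to be higher in male liver had higher values in MøFoxO1-KO livers. All 13 genes of a male-biased list had a log2 fold change above 0 (12 with counts scaled to library totals), with a median of 2.07 and 5 past the threshold of the study, Hsd3b5, Mup12, Susd4 and C8b among them. Of a female-biased list, 7 of 12 genes were tested, all had a log2 fold change below 0, with a median of -2.53, and 2 passed the threshold, Cyp2a4 and Hao2. Fmo2 and Cyp2b13 of that list, at -1.25 and -3.46, had BH-adjusted P values of 0.102 and 0.107 (edgeR). The summed female-biased list had 2937 to 11571 normalized counts in WT and 1100 to 2880 in MøFoxO1-KO livers, and the summed male-biased list had 68382 to 115020 and 103387 to 179784. Both lists were chosen with earlier results of these data known. The paper reports some of their genes as changed in these livers, Mup7 and Mup12 higher and Cyp2a4, Cyp2b9 and Cyp2b13 lower. The counts over these lists are therefore not independent of the data. The part of both lists in the Elovl3 values was not tested.

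Elovl7 (ENSMUSG00000021696, plus strand of chromosome 13, 108214404 to 108287105) was the least abundant member. Raw counts were 16, 42, 25 and 10 in WT replicates 22 to 25 and 7, 10, 7 and 7 in MøFoxO1-KO replicates 26 to 29, so each value rests on few reads. Scaled to library size, MøFoxO1-KO replicates 26, 28 and 29 lay below all WT mice, and replicate 27, with 11.9 normalized counts, lay above WT replicate 25, with 9.96. The means were 22.3 ± 13.8 (SD, n = 4) and 8.28 ± 2.5 (SD, n = 4) normalized counts (exact permutation P = 0.0571). The log2 fold change of Elovl7 was -1.43 ± 0.49 (SE), with a 95% confidence interval from -2.52 to -0.34 (edgeR, unadjusted P = 0.0152, BH-adjusted P = 0.204). WT replicate 23, with 42 counts, weighed on this value: without it the log2 fold change was -0.96 (edgeR, unadjusted P = 0.0554, BH-adjusted P = 0.393). The WT counts of Elovl7 alone would pass the filter on low counts, and its MøFoxO1-KO counts, at 10 only in replicate 27, would not. Passing in this way favours genes that are higher in WT livers, so the direction is not independent of the filter. With at least 10 counts required in every mouse Elovl7 was not tested.

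**Figure D2:**
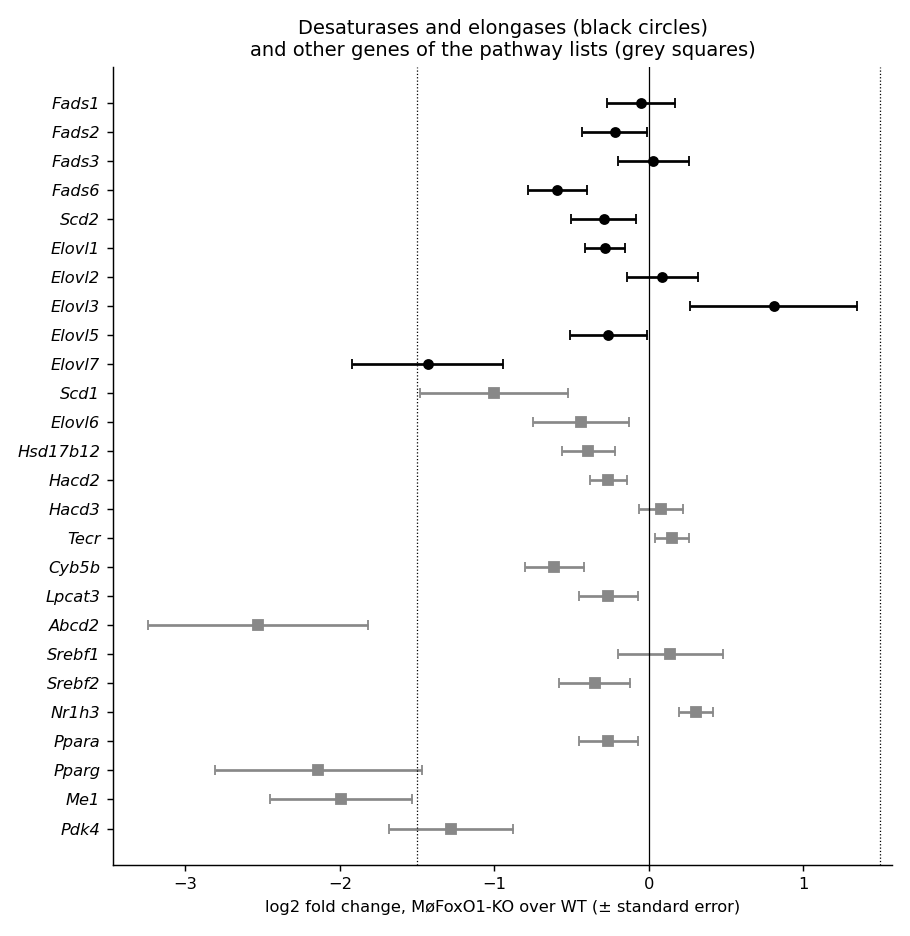
Log2 fold change of MøFoxO1-KO over WT livers (points, x axis) with its standard error (bars) from edgeR for the 10 members (black circles) and other genes of the pathway lists (grey squares), with dotted lines at the limit of 1.5 in either direction. All members lie between -1.43 (Elovl7) and 0.81 (Elovl3), inside the dotted lines, and Abcd2, Pparg and Me1 lie beyond -1.5.

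Levels of different genes were compared as normalized counts per kilobase of the exon length given in the table. In WT livers, Elovl5 stood first with 3047 ± 875 (SD, n = 4) normalized counts per kilobase, above 97.6% of tested genes, and its 4 mice did not overlap those of Fads2, the next gene. Fads2 (1568 ± 367), Elovl3 (1404 ± 688), Elovl2 (1344 ± 459) and Fads1 (974 ± 269) followed, and each neighbour in this order overlapped the next (SD, n = 4 each). Fads6 (229 ± 40.9) and Elovl1 (194 ± 18.7) overlapped each other, Fads1 was 4.25 times Fads6, and Elovl1 was 3.67 times Fads3 (52.9 ± 13.5), with no overlap (SD, n = 4 each). Scd2 (26.2 ± 5.37) and Elovl7 (4.11 ± 2.53) were last, without overlap between Fads3 and Scd2 (2.02 times) or Scd2 and Elovl7 (6.37 times), and Elovl7 lay above only 5.68% of tested genes in the WT mean (SD, n = 4 each). For comparison, Scd1 had 35872 ± 25697 and Elovl6 68.5 ± 32.1 normalized counts per kilobase (SD, n = 4 each) in the same livers.

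In MøFoxO1-KO livers Elovl5 was again first, at 2543 ± 663 normalized counts per kilobase (SD, n = 4), but overlapped Elovl3, at 2457 ± 1568 (SD, n = 4), and Elovl2 (1428 ± 257), Fads2 (1348 ± 288) and Fads1 (941 ± 169) followed (SD, n = 4 each). Neighbours overlapped down to Fads2, and Fads2 did not overlap Fads1, nor Fads1 Elovl1. Elovl1 (160 ± 23.8) and Fads6 (152 ± 35.2) overlapped and stood in the other order than in WT livers, and Fads3, Scd2 and Elovl7 kept the last 3 places. Expressed as a share of the summed level per kilobase of the 10 members in each mouse, Elovl5 held 34.1% ± 7.16 (SD, n = 4) in WT and 28.2% ± 3.63 in MøFoxO1-KO livers. Elovl3 held 16.6% ± 10.4 and 24.7% ± 11.7, and Fads2 17.5% ± 2.17 and 15.7% ± 5.15 (SD, n = 4 each). These shares were not tested. The levels depend on the exon length. The table gives 1508 exon bases for Fads2, 3456 for Fads1, 1494 for Elovl3 and 5435 for Elovl7, where GENCODE M21 has 3295, 4812, 1975 and 4013. With the GENCODE M21 lengths, an alternative chosen after seeing the data, Fads2 had 718 ± 168 and Fads1 700 ± 193 normalized counts per kilobase in WT livers (SD, n = 4 each), next to each other after Elovl5, Elovl2 and Elovl3. In MøFoxO1-KO livers they then had 617 ± 132 and 676 ± 122 (SD, n = 4 each), and Fads1 stood before Fads2.

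**Figure D3:**
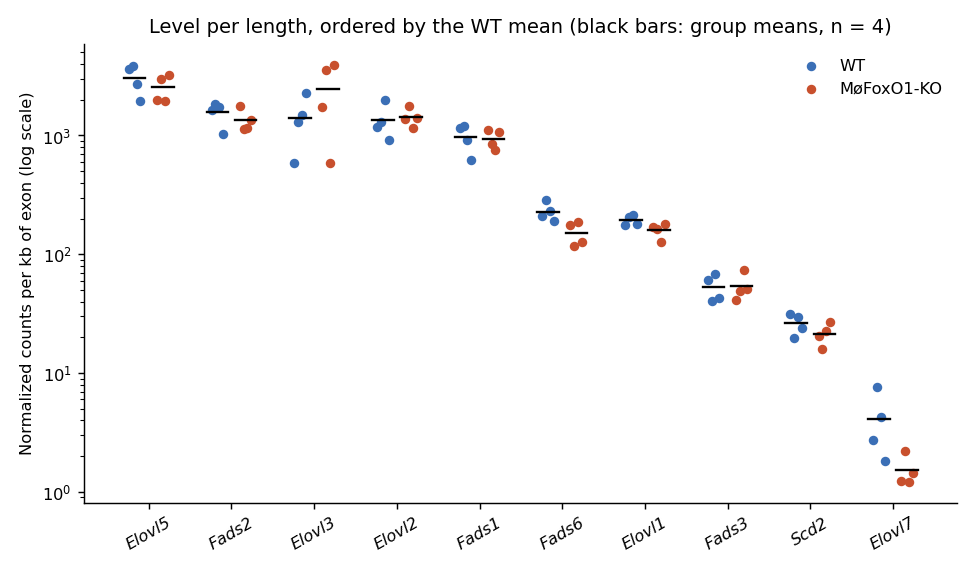
Normalized counts per kilobase of exon (log scale) for the 10 members in the order of their WT means, with 1 point per mouse and a black bar for the mean of each group of 4 mice. Levels run from 3047 for Elovl5 to 4.11 for Elovl7 in WT livers, and the mice of neighbouring genes do not overlap below Elovl5, Fads1, Elovl1, Fads3 and Scd2 in WT livers, with the largest ratio, 6.37, between Scd2 and Elovl7.

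The balance between successive or alternative enzymes was taken as the log2 ratio of their levels per kilobase within each mouse, which does not depend on library scaling. For Fads1 over Fads2, the Δ5- over the Δ6-desaturase, the log2 ratios were -0.51, -0.62, -0.93 and -0.74 in WT and -0.67, -0.43, -0.61 and -0.34 in MøFoxO1-KO livers. MøFoxO1-KO replicates 27 and 29 lay above all WT mice, and the means were -0.7 ± 0.18 and -0.51 ± 0.16 (SD, n = 4), a difference of 0.18 (exact permutation P = 0.171, Benjamini-Hochberg adjusted over 3 ratios 0.386). With the GENCODE M21 lengths the means were -0.05 ± 0.18 and 0.14 ± 0.16 (SD, n = 4 each), so which of the 2 genes had the higher level depends on the length used, while the difference between genotypes, 0.18, does not.

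For Elovl2 over Elovl5, the log2 ratios were -1.62, -1.58, -0.45 and -1.11 in WT and -0.54, -0.74, -0.77 and -1.21 in MøFoxO1-KO livers. WT replicates 22 and 23 were the lowest of the 8 mice and WT replicate 24 the highest, and the difference of the means was 0.38 (exact permutation P = 0.257, adjusted 0.386). For Scd2 over Scd1, the mean log2 ratio was -10.16 ± 1.29 in WT and -9.65 ± 0.78 in MøFoxO1-KO livers (SD, n = 4, exact permutation P = 0.429, adjusted 0.429). WT replicate 23, with the highest Scd1, had -11.83, and without it the difference of 0.51 turned to -0.05. None of the 3 ratios separated the groups.

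**Figure D4:**
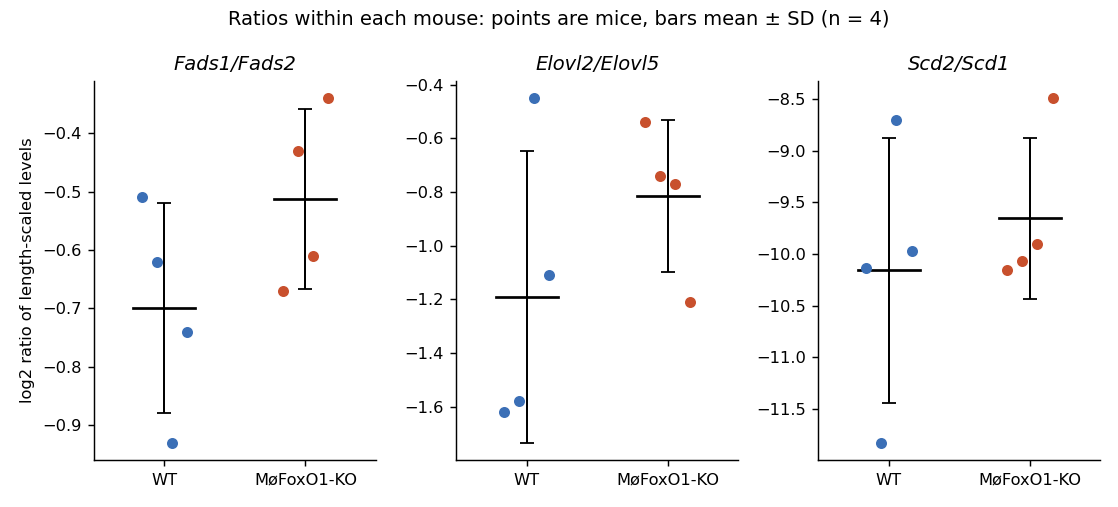
Log2 ratio of levels per kilobase within each mouse for Fads1 over Fads2, Elovl2 over Elovl5 and Scd2 over Scd1, with 1 point per mouse and bars for the mean ± SD of 4 mice. The y axes differ and do not start at 0, and in each plot the WT and MøFoxO1-KO points overlap.

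Mice of the same genotype varied. The coefficient of variation of normalized counts ranged from 9.6% (Elovl1) to 61.6% (Elovl7) over the WT mice and from 14.9% (Elovl1) to 63.8% (Elovl3) over the MøFoxO1-KO mice. With each group centred on its mean, all 45 pairs of members were correlated over the 8 mice, and 27 of the pairs had a Pearson r above 0, with a median of 0.16. No pair passed Benjamini-Hochberg adjustment over the 45 pairs by Pearson's r or by Spearman's rho, and 3 had an unadjusted permutation P under 0.05 by Pearson's r.

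By Pearson's r, the neighbours Fads1 and Fads2 had the closest relation (r = 0.89, permutation P = 0.00409, adjusted 0.184, and rho = 0.81, permutation P = 0.0218, adjusted 0.419, n = 8). Without the 2 mice farthest from the median of Fads1, r was 0.65. By Spearman's rho, Elovl2 and Elovl7 were closest (rho = 0.88, permutation P = 0.00724, adjusted 0.326, and r = 0.63, permutation P = 0.0927, adjusted 0.649), with r = 0.58 without the 2 mice farthest from the median of Elovl2. In MøFoxO1-KO replicates 26, 28 and 29 Elovl7 had 7 raw counts each, so their order came only from library scaling, which Elovl2 shares. This rank relation therefore rests in part on scaling and on few reads. Fads1 and Elovl5 had r = 0.72 (permutation P = 0.0442, adjusted 0.649) and rho = 0.79 (permutation P = 0.0279, adjusted 0.419), but r was 0.2 without the 2 farthest mice, so the relation rests on them. Elovl1 and Elovl3 also had r = 0.72 (permutation P = 0.0442, adjusted 0.649, and rho = 0.62, permutation P = 0.115), which turned to -0.23 without the 2 farthest mice. Values of 1 mouse share its library and its liver.

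**Figure D5:**
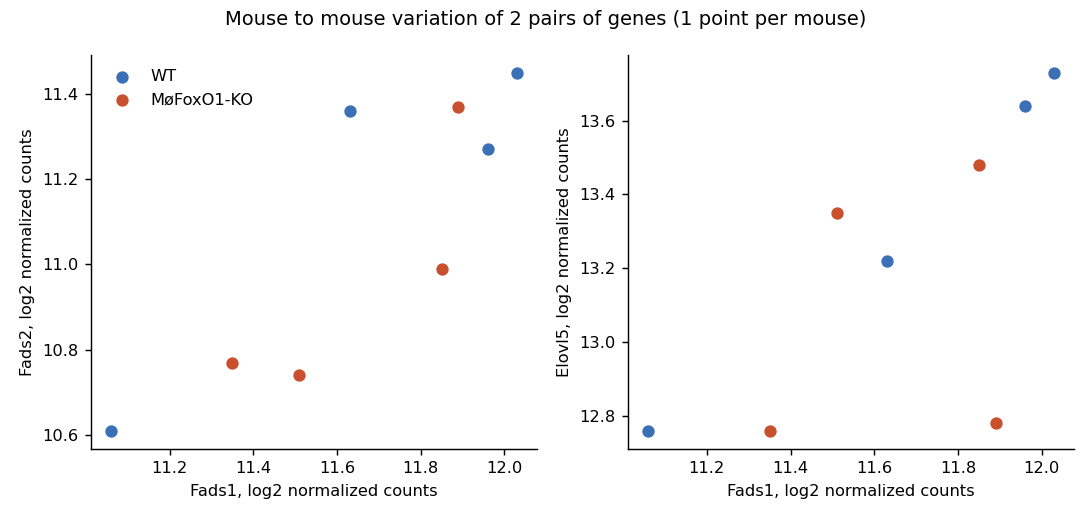
Log2 normalized counts of Fads1 (x axes) against Fads2 (left) and Elovl5 (right), with 1 point per mouse, before centring on the group means. WT replicate 25 is lowest for Fads1, at 11.06, and for Fads2, at 10.61, and MøFoxO1-KO replicate 26 lies apart on the right, with 11.89 for Fads1 and 12.78 for Elovl5.

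The wider pathway was described with 9 lists of 77 genes, of which 70 were tested. None passed an adjusted P of 0.05 (edgeR, BH), 49 had a log2 fold change below 0 and 21 above 0 (64 and 6 with counts scaled to library totals), and the median was -0.17, beside -0.01 for all tested genes. At an unadjusted P under 0.05 (edgeR), 6 of the 70 were lower and 1 was higher, where 8.06% and 8.65% of all tested genes were. Groups without overlap, as named below for single genes, were seen in 4.71% of tested genes with MøFoxO1-KO lower and in 5.00% with it higher. The counts by list that follow are from TMM scaling, and library totals moved most of them below 0 with the shift of all genes. Of the other desaturases and elongases 4 of 7 were tested, with Scd3, Scd4 and Elovl4 too low, and 2 had a log2 fold change above and 2 below 0. Elovl6, which lengthens palmitate to stearate, had a log2 fold change of -0.44 ± 0.31 (SE; edgeR, BH-adjusted P = 0.522).

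Elongases work with a ketoacyl reductase, dehydratases and an enoyl reductase. Of these partners 6 of 7 were tested, 3 above and 3 below 0. Hsd17b12, the reductase of the second step, had 3019 ± 690 normalized counts in WT livers and 2297 ± 264 in MøFoxO1-KO livers (SD, n = 4 each), a log2 fold change of -0.39 (edgeR, unadjusted P = 0.0443, BH-adjusted P = 0.285). The dehydratases Hacd2 and Hacd3 had log2 fold changes of -0.26 and 0.08, and Tecr, the last enzyme of the cycle, 0.15. Of 4 listed genes for cytochromes b5 and their reductases (Cyb5a, Cyb5b, Cyb5r1 and Cyb5r3), 1 lay above and 3 below 0. Cyb5b, the cytochrome b5 of the outer mitochondrial membrane, had 5368 ± 863 (SD, n = 4) and 3517 ± 824 (SD, n = 4) normalized counts, a log2 fold change of -0.61 ± 0.19 (SE; edgeR, unadjusted P = 0.00922, BH-adjusted P = 0.178), and its groups overlapped. Whether Cyb5b serves the desaturases here was not tested.

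Acyl-CoA synthetases, which activate fatty acids before these steps, had 4 tested genes above and 3 below 0, with a median of 0.11 (-0.04 with library totals). Phospholipid remodeling enzymes, which place polyunsaturated chains in membranes, had 3 above and 4 below 0, with a median of -0.1, and Lpcat3 at -0.26. Of the 9 genes of peroxisomal chain shortening, the step that completes docosahexaenoic acid, 2 lay above and 7 below 0, with a median of -0.2. Abcd2, a peroxisomal transporter of very-long-chain acyl-CoA, had 372 ± 159 normalized counts in WT livers and 65.0 ± 86.6 in MøFoxO1-KO livers (SD, n = 4 each) without overlap, a log2 fold change of -2.53 (edgeR, unadjusted P = 0.00495, BH-adjusted P = 0.145). Abcd2 is also a member of the female-biased list.

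Of 15 transcription regulators of lipid genes, 6 lay above and 9 below 0. Srebf1, which encodes an activator of several Scd, Fads and Elovl genes, had a log2 fold change of 0.14 ± 0.34 (SE), and Srebf2 had -0.35 ± 0.23 (SE), while Ppara, the fasting-responsive nuclear receptor, had -0.26 ± 0.19 (SE). Nr1h3, the liver X receptor α upstream of Srebf1, had 1500 ± 64.5 (SD, n = 4) and 1858 ± 174 (SD, n = 4) normalized counts, a log2 fold change of 0.31 without overlap (edgeR, BH-adjusted P = 0.212). Pparg, an inducer of lipid storage, had 442 ± 106 (SD, n = 4) and 99.6 ± 109 (SD, n = 4), a log2 fold change of -2.14 without overlap (edgeR, BH-adjusted P = 0.181). All 9 tested SREBP targets outside the members lay below 0, with a median of -0.47 and Me1, malic enzyme, lowest at -1.99 (edgeR, BH-adjusted P = 0.111). All 9 PPARα targets also lay below 0, with a median of -0.25 and Pdk4 at -1.28 (edgeR, BH-adjusted P = 0.183). No gene of these lists passed the test.

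Whole liver RNA mixes cell types, and marker lists were summed as normalized counts per mouse. Hepatocyte markers, with Alb and Ttr among them, ranged from 1181041 to 1590592 in WT and from 1402236 to 2025687 in MøFoxO1-KO livers, with 7 of 8 genes above 0 on the log2 fold change scale (5 with library totals), and these high levels matched the labelled tissue. Apoa1 and Serpina1a of that list had log2 fold changes of 1.07 and 0.9, each without overlap (edgeR, BH-adjusted P = 0.0765 and 0.102). Macrophage markers ranged from 3262 to 5861 and from 3464 to 15009, with 9 of 12 above 0. At an unadjusted P under 0.05 (edgeR), 4 were higher and 2 lower, where 8.65% and 8.06% of all tested genes were. Marco, a scavenger receptor of resident macrophages, had a log2 fold change of 5.18 ± 1.06 (SE) with overlapping groups (edgeR, BH-adjusted P = 0.087), and Cd5l had 1.08 (edgeR, BH-adjusted P = 0.234). Trem2, of lipid-associated macrophages, had a log2 fold change of -3.88 without overlap (edgeR, BH-adjusted P = 0.0983). Gpnmb, of the same macrophages, was lower (log2 fold change -4.13, edgeR, BH-adjusted P = 0.0382) and was the only tested marker of these cell type lists to pass the threshold in this fit. MøFoxO1-KO livers had 2.82 ± 2.77 normalized counts of Trem2 and 3.79 ± 2.74 of Gpnmb (SD, n = 4 each), under the 10 counts of the filter. Both genes were tested through their WT counts. As for Elovl7, their direction and the lack of overlap of Trem2 are therefore not independent of that filter. The paper names Trem2 and Col1a1 among its lower genes in these livers. Stellate markers ranged from 4421 to 7309 and from 5039 to 8228, with 4 of 9 above 0 (2 with library totals). The collagens Col1a1 and Col3a1 of that list had log2 fold changes of -1.28 and -0.76 (edgeR, BH-adjusted P = 0.193 and 0.25). Cholangiocyte markers ranged from 1319 to 1767 and from 994 to 1511, with 0 of 6 tested above 0. Endothelial markers ranged from 1621 to 3873 and from 2965 to 4368, with 7 of 7 above 0 (6 with library totals), and lymphocyte markers from 236 to 951.6 and from 423.3 to 737.7, with 6 of 7 tested above 0. Neutrophil markers ranged from 24.36 to 66.45 and from 10.54 to 71.65, with Ly6g and Cxcr2 at 3 counts or fewer in every mouse and 0 of 2 tested above 0. Of the adipocyte markers, Adipoq, Plin1, Lep and Retn were at 3 counts or fewer in every mouse, and Cfd was the 1 gene tested, with a log2 fold change of -0.12 and a summed list from 142.1 to 2347 in WT and from 0 to 4516 in MøFoxO1-KO livers. The part of these cell types in the members' values was not tested.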

How the data were processed

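Whole livers of 4 MøFoxO1-KO and 4 WT mice were profiled by RNA-Seq of polyadenylated RNA. The authors deposited raw read counts per Ensembl gene for each mouse, not normalized, with GRCm38 exon coordinates and exon length. The submitters' processing notes name STAR, featureCounts and mm10 (GRCm38). Their versions, strandedness and the handling of multi-mapping reads are not given in the sources used here. Of the 46517 genes, 46005 matched a GENCODE M21 symbol.

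Genes were filtered with filterByExpr (minimum count 10, minimum total 15), scaled by TMM and compared between genotypes by edgeR 4.0.16 (glmQLFit and glmQLFTest, R 4.3.3) with no covariate, and P values were adjusted by Benjamini-Hochberg (BH) over 13278 genes. The common biological coefficient of variation was 0.256. Normalized counts are counts divided by the TMM library size expressed against the average of all 8 mice. Standard errors were taken from the fold change and its F statistic. Permutation tests were two-sided and exact over 70 assignments of the mice for differences between groups (scipy 1.17.1). Total counts limit the precision for genes with few counts. The procedure was tested on simulated counts whose changes were larger than that of any member. It therefore does not cover changes of the size seen in the members.

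Groups followed the genotype labels. Alternatives were DESeq2 1.42.0, its size factors, upper-quartile normalization, total counts, 2 other filters, limma-voom (limma 3.58.1), the robust fit of edgeR and leaving out each mouse. Exon lengths of GENCODE M21 were added after seeing the data. The paper calls the groups littermates, and the labels give no litter or pairing, so the tests did not pair mice. All 10 members are named. Of the other lists, genes at an unadjusted or adjusted P under 0.05 are named, up to the 4 smallest P of a list, and 12 pathway genes always, with summaries for the rest. The members and the lists were chosen with earlier results of these data known. Promoters were taken from RefSeq (GRCm38.p6). A comparison of protein sequences was not made.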

Additional observations from a re-analysis of the deposited data

Results flagged for a closer look

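In MøFoxO1-KO livers, replicate 29 had a log2 ratio of Scd2 over Scd1 of -8.49, apart from the other 3 mice of its group at -10.16, -10.07 and -9.9. Its gap to the nearest mouse was 0.846 of the range of the group, above Dixon's 95% critical value for 4 samples. This mouse had the lowest Scd1, 46740 normalized counts, and the highest Scd2 of its group, 147 normalized counts. It was the 1 value set apart among 26 groups of 4 that were checked, and chance sets apart about 1 in 20 such groups.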

How the results depend on the processing

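Over all genes, the number called was 25 and changed to 144 with DESeq2, 120 without a filter on low counts and 13 with limma-voom, and it ranged from 3 (WT replicate 25) to 82 (MøFoxO1-KO replicate 28) when 1 mouse was left out. No member was called in any of these fits, and none had an adjusted P under 0.05 in them. Without adjustment 2 members passed a P of 0.05 in edgeR (from 1 to 3 when 1 mouse was left out), where 8.06% of tested genes were lower and 8.65% higher. Groups did not overlap for 1 member, Fads6. Every MøFoxO1-KO mouse was below every WT mouse in 4.71% of tested genes and above in 5.00%. The log2 fold change of Fads1 ranged from -0.22 to 0.07, that of Fads3 from -0.15 to 0.17 and that of Elovl2 from -0.06 to 0.34 when 1 mouse was left out, in both directions. The log2 ratios of mean normalized counts did so too, from -0.22 to 0.07 for Fads1, from -0.16 to 0.18 for Fads3 and from -0.06 to 0.34 for Elovl2. With total counts they were -0.13 for Fads3 and -0.1 for Elovl2. The difference of the Scd2 over Scd1 ratio ranged from -0.05 to 0.99. For Fads6 the exact permutation P was between 0.0571 and 0.0857 in 6 of the 8 comparisons that left out a mouse. The cause of these changes was not tested. Of 525 alternative values in all, 478 kept their direction and their side of the threshold, or moved by less than the spread between replicates. With GENCODE M21 exon lengths, chosen after seeing the data, the levels per kilobase of Fads1 and Fads2 in both groups and of Elovl7 in MøFoxO1-KO livers moved by more than 1 SD. With library totals the split of the 70 pathway genes was 6 above and 64 below 0, in place of 21 and 49. Depth limits Elovl7, with at most 42 counts in a mouse.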
